A study of Drosophila melanogaster with 6 samples.

Results

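The genes examined here are the heat shock and chaperone genes of Drosophila, taken by name: every gene of the FPKM table whose symbol, ignoring case, begins with Hsp, Hsc70, DnaJ, or CCT followed by a digit. The rule used no measured value and found 32 of 17411 genes. 14 of them are classed as heat-inducible (the 7 genes of the small heat shock protein cluster at 67B, the 6 Hsp70 copies and Hsp68), and the other 18 as basal, constitutive or other, among them Hsp83 and DnaJ-1, which are expressed at rest and raised further by heat. The name does not make a chaperone of 3 of the 18. HSPC300 is a subunit of the actin-regulating WAVE complex, and Cct1 and Cct2 carry the current symbols Pcyt1 and Pcyt2, enzymes of phospholipid synthesis, and Hsp67Bb, among the heat-inducible genes, carries the current symbol CG4456 and is known as a rhodanese-domain gene, so 28 of the 32 are chaperones or co-chaperones.

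Leg imaginal discs were dissected at 0 h after puparium formation (APF), the white pupa stage, from sr-gal4>UASGFP animals. GFP+ cells, 3 libraries, were sorted for the GFP that sr-gal4 drives in tendon precursors, and input cells, 3 libraries called control in the labels, were sorted from the same kind of suspension without regard to fluorescence, so that the input also holds GFP+ cells. Both groups carry the same genotype, given as UAS-Lifeactin.GFP with sr-gal4 over the balancer TM6b in the study's methods, and sr-gal4 is an insertion in the stripe gene. Each sample pooled 250 to 300 discs, which were dissociated for 1 h at 30 °C in collagenase and papain before sorting. The input was sorted first and the GFP+ cells after it, so the order of sorting and the group cannot be told apart.

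Heat shock proteins are molecular chaperones. Hsp70 and its J-domain partners bind unfolded segments of other proteins in an ATP-driven cycle, Hsp90 completes the folding of kinases and receptors, the ring-shaped chaperonins enclose a folding chain, and the small heat shock proteins hold denatured proteins without ATP. In Drosophila the Hsp70 genes are nearly silent until heat shock factor, Hsf, binds their promoters, whereas the Hsc70 genes are expressed without stress, and Hsp22, Hsp23, Hsp26 and Hsp27 are also known to be induced by the moulting hormone ecdysone at the end of larval life.

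The deposited tables give 1 FPKM value (fragments scaled to transcript length and to library size) for each group, with a lower and an upper confidence bound, and not a value for each library. No spread between libraries, standard deviation, p-value or test is therefore given, and every comparison below is between 2 group values. A gene is called higher in GFP+ cells where its FPKM was at least 1.5 times that of the input and the bounds of the groups did not overlap, and lower by the same rule reversed. Genes with a mean FPKM of the groups under 1 were not called. This rule left 8820 genes of the table and 28 of the 32 heat shock and chaperone genes, all 14 heat-inducible ones and 14 of the 18 others. For the 24 of them at a mean FPKM of 10 or more, the bounds reached 18.7% to 34.8% above and below the FPKM in GFP+ cells and 18.7% to 38.7% in the input.

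The tendon markers are a weak check of the label. The sort used sr-gal4, an insertion in stripe, and the markers dar1 and drm were candidates that the study chose by enrichment in these same data. All 5 tendon markers were called higher in GFP+ cells, with a summed FPKM of 881 in GFP+ cells and 182 in the input, stripe (sr) itself being at 54.5 in GFP+ cells and 6.59 in the input. Markers of other cell types also differed between the groups. Of 3 epithelium markers 2 were called lower, shg (87.5 FPKM in GFP+ cells, 164 in the input) and Dll (39.6 and 101), with sums of 432 and 517 FPKM in GFP+ and input cells. With a smooth trend on transcript length subtracted, the log2 ratio of shg went from -0.91 to -0.09 and that of Dll from -1.35 to -1.27. All 5 myoblast markers were called lower (summed FPKM of 11.2 in GFP+ cells and 129 in the input; twi at 2.56 and 29.0), and of 2 tracheal markers the 1 that could be called, trh, was lower. Of 5 neuron markers 3 could be called and 2 of these were higher. The sums over all 5 were 29.5 and 23.6 FPKM in GFP+ and input cells, and elav was at 10.1 in GFP+ cells and 18.6 in the input. Of 5 fat body markers 3 could be called and 1 of these was higher, with sums over all 5 of 27.1 and 0.333 FPKM. None of the 2 hemocyte markers of 7 that could be called was called (sums 19.5 and 19.1), and eater and He were listed at 0 in GFP+ cells. The part of these cell types in the values below was not tested. In such bulk samples, fewer cells of a type and less RNA per cell cannot be told apart.

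On the FPKM scale, calls among these genes were found in the heat-inducible class. Of the 14 heat-inducible genes 7 were called higher and 0 lower, and the median log2 ratio of FPKM, GFP+ over input, was 0.77. These calls are not all separate: 4 of the 7 are nearly identical Hsp70 copies that share reads, and 3 were called without the copies. Of those 3, Hsp22 had a mean normalized count over all libraries of 0, as described below. Of the 14 other genes with a mean FPKM of at least 1, 0 were called higher and 0 lower, with a median log2 ratio of 0.08. Over all 8820 genes, 676 were called higher (7.66%) and 1162 lower (13.2%), and the median log2 ratio was 0.02. Every one of the 14 heat-inducible genes had the higher FPKM in GFP+ cells, as did 7 of the 14 others. Together the 14 heat-inducible genes made 2.42% of the summed FPKM in GFP+ cells and 2.13% in the input, against 0.858% and 1.05% for the 18 other genes.

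**Figure D1:**
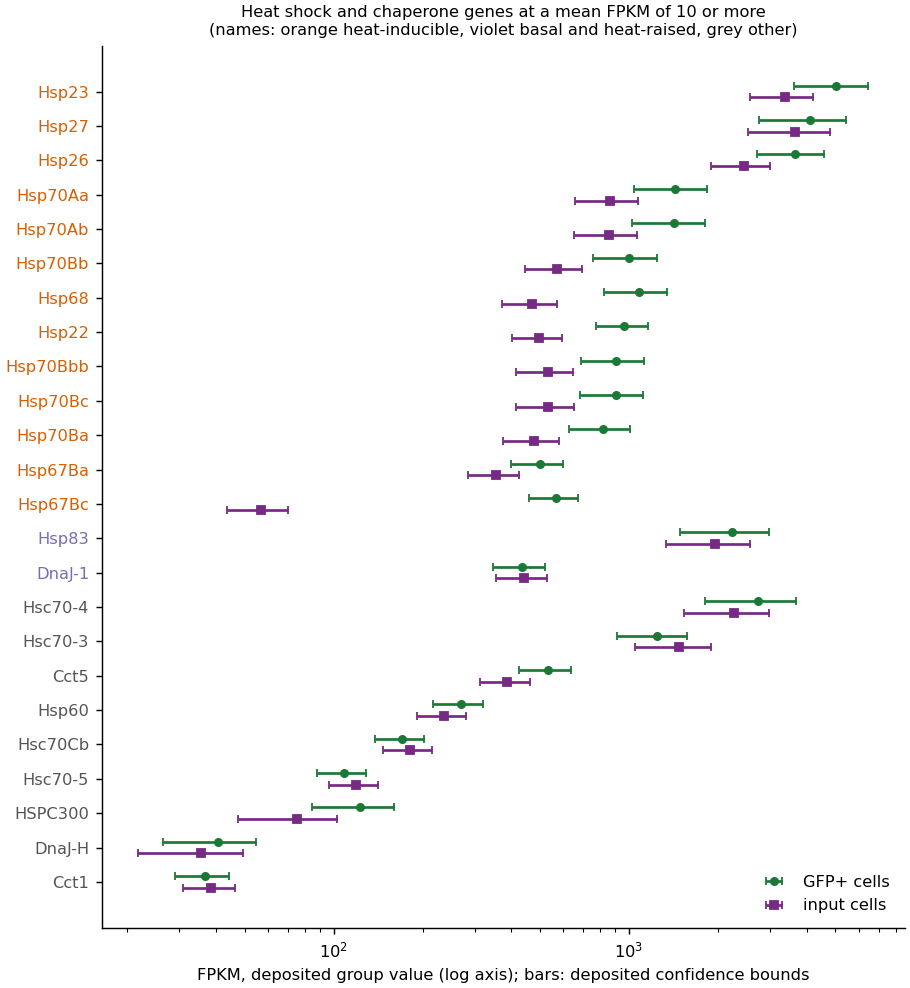
FPKM (log axis) of the 24 heat shock and chaperone genes at a mean FPKM of 10 or more; circles are GFP+ cells and squares input cells, and the bars are the deposited confidence bounds of each group value. The bounds are apart for 7 heat-inducible genes, most widely for Hsp67Bc (566 FPKM in GFP+ cells, 56.7 in the input), and overlap for every gene of the other classes.

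The level of a gene has to be read beside this contrast. Among the 188 genes at a mean FPKM of 500 or more, 53.2% were called higher in GFP+ cells and the median log2 ratio was 0.74, and 82 of these genes encode ribosomal proteins (median 0.84). A ratio could be formed for 91 genes of this level that are neither ribosomal protein genes nor among the 32 (1 more, alphaTub84B, was listed at 0 in GFP+ cells), and these had a median of 0.29, and 25.3% of them were called higher. The 11 heat-inducible genes at this level had a median of 0.76 and 6 were called higher, while the 3 others at this level (Hsc70-4, Hsp83 and Hsc70-3) lay between -0.25 and 0.27. The 11 include the 6 nearly identical Hsp70 copies, which share reads and make 4 of the 6 calls. They are therefore not 11 separate signals to set beside the 91 genes. With a smooth trend of the log2 ratio on the level subtracted from every gene, an alternative chosen after seeing the data, the median was 0.34 for the heat-inducible genes and -0.23 for the others. The distance between the medians was 0.68 as deposited and 0.57 after that step. After it 11 of the 14 heat-inducible genes lay above 0 and 5 of the 14 others did, and 7 genes changed sign, among them Hsp23 (-0.19) and Hsp26 (-0.12).

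The scale matters as well, because the FPKM values summed to 926347 in GFP+ cells and to 689351 in the input. Dividing each group by its sum (the TPM scale, also chosen after seeing the data) lowers every log2 ratio by 0.43 and moves the median of all genes to -0.41. On it 2 of the 14 heat-inducible genes were called higher and 0 lower, where 4.13% of all genes were called higher, and 1 of the 14 others was called lower, where 24.9% were. The 2 that stayed called were Hsp67Bc and Hsp68, and the 1 called lower was Hsc70-2. On this scale 13 of the 14 heat-inducible genes still lay above 0, as did 3 of the 14 others, and 5 genes changed sign: Hsp27, Hsp83, Hsc70-4, Hsp60 and DnaJ-H.

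**Figure D2:**
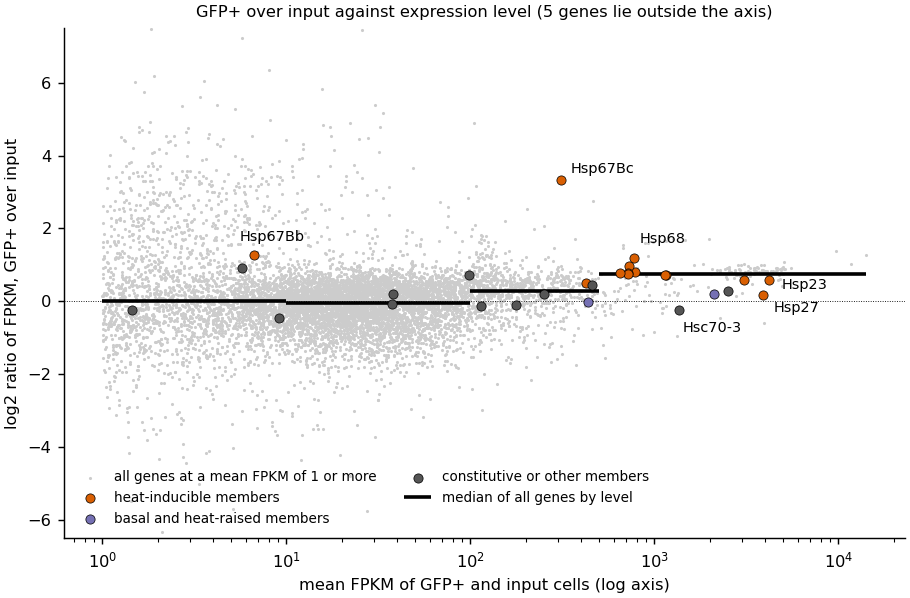
Log2 ratio of FPKM, GFP+ over input, against the mean FPKM of the groups (log axis); grey points are all genes at a mean FPKM of 1 or more, coloured points the 28 heat shock and chaperone genes, and black bars the median of all genes at 1 to 10, 10 to 100, 100 to 500, and 500 or more. The median rises to 0.74 in the highest class, and Hsp67Bc, at 3.32, lies above all but 1 of the 1053 genes at 100 FPKM or more with a value above 0 in both groups.

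The small heat shock protein genes lie in a cluster at cytological position 67B, where 7 of the 14 heat-inducible genes lie within 14.2 kb of chromosome 3L. In BDGP6 coordinates (the dm6 assembly) these run from Hsp67Bc (chr3L:9371511-9372497, minus strand) through Hsp67Bb (9372722-9374964, plus), Hsp22 (9372931-9374964, plus), Hsp26 (9376418-9377427, minus), Hsp67Ba (9377802-9379534, minus) and Hsp23 (9381882-9382765, plus) to Hsp27 (9384063-9385694, plus). Neighbours on the chromosome differed both in level and in ratio.

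Hsp67Bc, the fly's HspB8-type small chaperone known for a role in autophagy with the BAG-domain protein Starvin, differed most. It had 566 FPKM in GFP+ cells (bounds 457 to 674), against 56.7 FPKM in the input (bounds 43.5 to 69.9), a ratio of 9.98 that the bounds place between 6.54 and 15.5. Its log2 ratio was 3.32, and 2.89 on the TPM scale. Of the 1053 genes at a mean FPKM of 100 or more with a value above 0 in both groups, 1 other gene, the neuropeptide precursor Lk, had a ratio as high (202 FPKM in GFP+ cells, 6.81 in the input; named after its value was seen), and 2 small RNA genes of this level listed at 0 in the input were left out of this count. By FPKM Hsp67Bc ranked 179th of all genes in GFP+ cells and 1853rd in the input. Starvin (stv), its partner, had 126 FPKM in GFP+ cells (bounds 102 to 151) and 84.3 in the input (bounds 68.1 to 100), a ratio of 1.498, so the bounds were apart and the fold of the rule was just missed.

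The classical small Hsps, Hsp23, Hsp26 and Hsp27, were the most abundant of the 32 in both groups. Hsp23 had 5040 FPKM in GFP+ cells (bounds 3627 to 6452), against 3388 in the input (bounds 2567 to 4208), a log2 ratio of 0.57. Hsp26 had 3650 FPKM in GFP+ cells (bounds 2711 to 4589) and 2448 in the input (bounds 1890 to 3006), a log2 ratio of 0.58. Hsp27, a small Hsp of the nucleus, had 4096 FPKM in GFP+ cells (bounds 2750 to 5441) and 3659 in the input (bounds 2523 to 4795), a log2 ratio of 0.16. The bounds of the groups overlapped for all 3, so none was called, and the ratio of Hsp27 could lie anywhere from 0.573 to 2.16. On the TPM scale Hsp23 and Hsp26 stayed above 0, at 0.15 each, and Hsp27 fell below it, at -0.26. With the level trend removed all 3 lay below 0, at -0.19, -0.12 and -0.58 for Hsp23, Hsp26 and Hsp27.

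Hsp22, the small Hsp of the mitochondrial matrix, was called higher: it had 966 FPKM in GFP+ cells (bounds 775 to 1156) and 498 in the input (bounds 401 to 594), a ratio of 1.94. It was not called on the TPM scale, where its log2 ratio was 0.53. Hsp67Ba, a little studied member of the cluster, had 498 FPKM in GFP+ cells (bounds 398 to 599) and 355 in the input (bounds 285 to 424), and its bounds overlapped. Hsp67Bb, whose current symbol is CG4456, had 9.41 FPKM in GFP+ cells and 3.90 in the input with both lower bounds at 0, so no direction can be read. The other genes within or beside the cluster were not called: CG4461, a further small Hsp gene between Hsp22 and Hsp26, was at 0.599 FPKM in GFP+ cells and 0.444 in the input, and CG4452 was at 56.2 and 55.6.

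**Figure D3:**
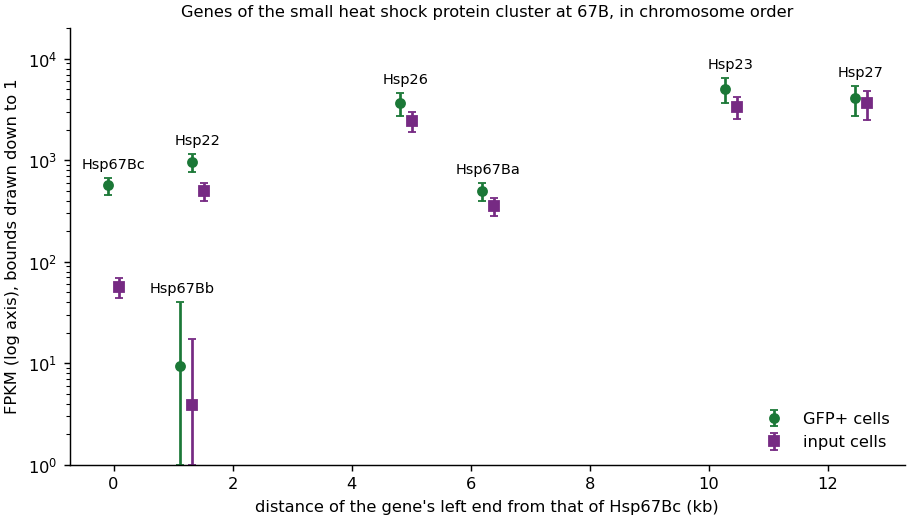
FPKM (log axis) of the 7 genes of the small heat shock protein cluster at 67B (6 small Hsp genes and Hsp67Bb) against the distance in kb of each gene's left end from that of Hsp67Bc; GFP+ circles are drawn just left of the input squares, and bars are the deposited bounds, cut at 1 where they reach 0. Hsp67Bc at the left end has a ratio of 9.98, and Hsp27 at the right end one of 1.12.

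The inducible Hsp70 proteins come from 6 intronless, nearly identical copies on chromosome 3R. 2 lie at 87A, Hsp70Aa (chr3R:11954163-11956544, minus strand) and Hsp70Ab (11958535-11960909, plus), and 4 at 87C, Hsp70Ba (12465453-12467776, minus), Hsp70Bbb (12502510-12504856, plus), Hsp70Bb (12505793-12508139, plus) and Hsp70Bc (12509076-12511461, plus). Reads of such copies cannot be told apart over most of their length, so the split between them depends on how the program shared them out, and the summed level is the more certain quantity. The 6 copies summed to 6476 FPKM in GFP+ cells and 3831 in the input, a ratio of 1.69. The log2 ratio of the sums was 0.76, and 0.33 on the TPM scale.

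The single copies had closely similar ratios, between 1.66 and 1.75. Hsp70Aa had 1437 FPKM in GFP+ cells (bounds 1039 to 1834) and 864 in the input (bounds 658 to 1070), and Hsp70Ab had 1420 in GFP+ cells (bounds 1026 to 1814) and 857 in the input (bounds 652 to 1063). Their bounds overlapped by a narrow margin. The 4 copies at 87C, with 815 to 997 FPKM in GFP+ cells and 477 to 569 in the input, had bounds just apart and were called higher, so the difference between the loci in being called is one of bounds and not of ratio. With all 6 copies left out, 3 heat-inducible genes were called higher (Hsp67Bc, Hsp68 and Hsp22), where 7.66% of all genes were. No Hsp70 copy was called on the TPM scale.

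Hsp68, the further stress-inducible Hsp70-type gene (chr3R:24055080-24057310, minus strand), had the second highest ratio among the called heat shock and chaperone genes. It had 1081 FPKM in GFP+ cells (bounds 820 to 1342), against 471 in the input (bounds 371 to 571), a ratio of 2.30 and a log2 ratio of 1.199. It was called at a fold of 2 as well, as was Hsp67Bc, and no other of the 28 genes was, where 4.91% of all genes were called higher.

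Hsp83, the fly Hsp90, and DnaJ-1, the Hsp40 that works with Hsp70, are expressed without stress and raised by heat, and neither was called. Hsp83 had 2237 FPKM in GFP+ cells (bounds 1490 to 2983) and 1954 in the input (bounds 1337 to 2571), with a ratio of 1.14 that may lie between 0.580 and 2.23. DnaJ-1 had 433 FPKM in GFP+ cells (bounds 346 to 521) and 441 in the input (bounds 353 to 529), with a ratio of 0.983 between 0.655 and 1.47. The log2 ratio of Hsp83 was 0.19 as deposited and -0.23 on the TPM scale. Of the partners of Hsp90, the kinase adaptor Cdc37 was called higher, with 121 FPKM in GFP+ cells and 80.5 in the input (not on the TPM scale), and Hop, which links Hsp70 to Hsp90, had 198 in GFP+ cells and 191 in the input.

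The constitutive Hsp70 family members lay on both sides of 0, and none was called. Hsc70-4, the main cytosolic Hsc70, had 2738 FPKM in GFP+ cells (bounds 1802 to 3673) and 2265 in the input (bounds 1540 to 2989), a log2 ratio of 0.27 that became -0.15 on the TPM scale. Hsc70-3, the BiP of the endoplasmic reticulum, had 1242 FPKM in GFP+ cells (bounds 909 to 1575) and 1475 in the input (bounds 1051 to 1898), a log2 ratio of -0.25. Among the genes at 500 FPKM or more, it was the one of the 32 with the lower value in GFP+ cells.

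Hsc70-5, the mitochondrial Hsp70, had 108 FPKM in GFP+ cells and 119 in the input, and Hsc70Cb (current symbol Hsp110), the exchange factor that works with Hsp70, had 170 and 181. The bounds put the ratio of Hsc70-5 between 0.622 and 1.33 and that of Hsc70Cb between 0.638 and 1.38. Hsc70-2 was low, at 7.67 FPKM in GFP+ cells and 10.5 in the input, and Hsc70-1 was near the floor of the table, at 0.0162 and 0.0540 FPKM. The 2 further J-domain genes, DnaJ-H and DnaJ-60, had 40.6 and 7.53 FPKM in GFP+ cells, against 35.5 and 3.98 in the input, with overlapping bounds.

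The chaperonins were carried by few of the names. Hsp60, the mitochondrial chaperonin with the current symbol Hsp60A, had 269 FPKM in GFP+ cells (bounds 217 to 321) and 236 in the input (bounds 191 to 281). Its paralogues were at or near 0: Hsp60D at 0.179 FPKM in GFP+ cells and 0 in the input, Hsp60C at 0 and 0.0110, and Hsp60B listed at 0 in both groups. These 3 and Hsc70-1 are the 4 genes that fell under the mean FPKM of 1. CCT5, named Cct5 in the table, was the subunit of the cytosolic chaperonin ring, which folds actin and tubulin, that the naming rule caught. It had 531 FPKM in GFP+ cells (bounds 424 to 638) and 387 in the input (bounds 312 to 461), with a ratio of 1.37.

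The other 7 ring subunits stand in the table under older symbols and were added after the values were seen. T-cp1 (CCT1) had 398 FPKM in GFP+ cells and 311 in the input, CG7033 (CCT2) had 341 and 301, and Tcp-1eta (CCT7) had 358 and 304. All 8 subunits had ratios between 1.13 and 1.37 and none was called, with a median log2 ratio of 0.36. On the TPM scale 2 of the 8 remained above 0 (Cct5 and CG5525) and the median was -0.07.

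The 3 names that are no chaperones were not called either. HSPC300 had 122 FPKM in GFP+ cells (bounds 84.6 to 160) and 74.9 in the input (bounds 47.5 to 102), a ratio of 1.63. Cct1 had 36.6 FPKM in GFP+ cells and 38.5 in the input, and Cct2 had 1.32 and 1.57. Without these 3 the median log2 ratio of the remaining 11 genes that are not heat-inducible was 0.19.

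**Figure D4:**
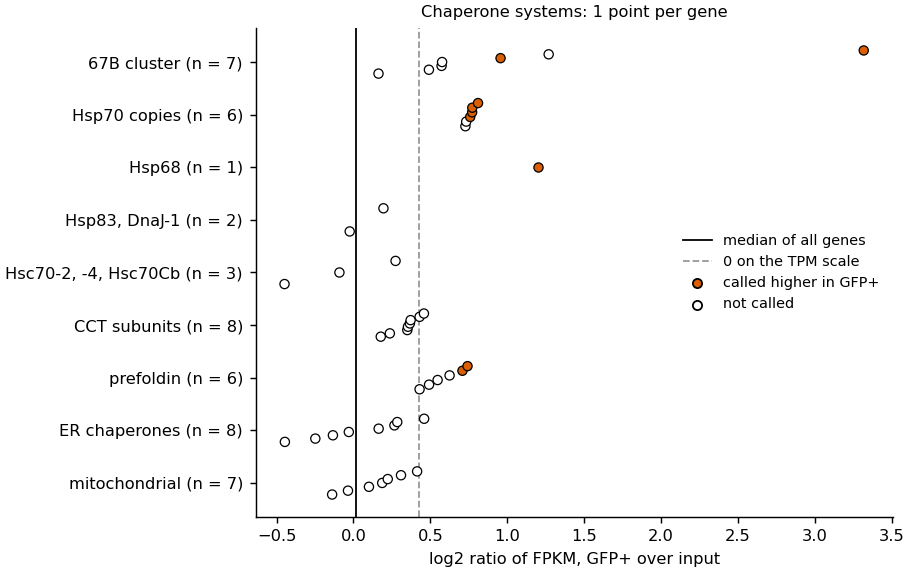
Log2 ratio of FPKM, GFP+ over input, of chaperone genes by system, 1 point per gene; filled points were called higher in GFP+ cells, the solid line is the median of all genes (0.02) and the dashed line marks 0 on the TPM scale (at 0.43). The 6 Hsp70 copies lie together to the right of both lines. The 8 CCT subunits lie between 0.18 and 0.46, mostly left of the dashed line, which only CG5525 and Cct5 reach.

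Chaperones outside the naming rule were taken from a list of 42 further genes, of which 36 had a mean FPKM of at least 1. Of these 1 was called higher (Cdc37) and 1 lower, where 7.66% and 13.2% of all genes were, and the median log2 ratio was 0.22. On the TPM scale 0 were called higher and 3 lower, where 4.13% and 24.9% of all genes were, and the median was -0.21. The gene called lower was Csp, the cysteine string protein, a J-domain chaperone of synaptic vesicles, with 71.1 FPKM in GFP+ cells (bounds 57.0 to 85.2) and 114 in the input (bounds 92.1 to 135). Among the 36, the largest ratio, 3.29, belonged to the J-domain gene jdp at 4.33 FPKM in GFP+ cells and 1.32 in the input, and its bounds overlapped.

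None of a list of regulators and other genes of stress responses was called higher. Hsf, the transcription factor of the heat shock response, had 44.1 FPKM in GFP+ cells (bounds 35.4 to 52.8) and 55.0 in the input (bounds 44.5 to 65.5), a ratio of 0.802. Hsromega, the heat-induced long noncoding RNA that gathers RNA-binding proteins in the nucleus, had 209 FPKM in GFP+ cells (bounds 160 to 258) and 270 in the input (bounds 214 to 326), a ratio of 0.774. The bounds overlapped for both. Of 19 listed stress genes that could be called, 0 were called higher and 2 lower, where 7.66% and 13.2% of all genes were, and the median log2 ratio was -0.24. The list also holds GstD1, Mmp1 and stv, and stv stands on the list of further chaperones as well. The median was 0.11 with the length trend removed, and on the TPM scale 8 of the 19 were called lower, where 24.9% of all genes were. Those called lower were Atf6, the transcription factor of the endoplasmic reticulum stress response (31.2 FPKM in GFP+ cells, 59.96 in the input), and cnc, the Nrf2 of the fly (29.8 in GFP+ cells, 55.1 in the input). Thor, the 4E-BP translation repressor, had 16.5 FPKM in GFP+ cells and 6.12 in the input with overlapping bounds.

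The listed genes of the ecdysone response were mostly lower in GFP+ cells. Of 14 such genes that could be called, 0 were called higher and 7 lower, where 7.66% and 13.2% of all genes were, with a median log2 ratio of -0.95 that became -0.41 with the length trend removed. Among the called genes the largest decreases were those of Hr46 (47.4 FPKM in GFP+ cells, 190 in the input), br (132 and 419), EcR, the ecdysone receptor (12.8 and 31.9), and Eip78C (14.3 and 32.8). Hr4 (20.7 FPKM in GFP+ cells, 50.1 in the input) was not called, and its input FPKM lies outside its own bounds of 0 to 9.81. Of the ecdysone-responsive small Hsps, Hsp22 was called higher, while Hsp23, Hsp26 and Hsp27 were not called and lay below 0 with the level trend removed.

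The heat-inducible genes share an intron-poor structure that the rule did not use. In the annotation 12 of the 14 heat-inducible genes have a single exon in every transcript, against 1 of the 18 others (Hsp60B), and the 2 exceptions are Hsp22 and Hsp67Bb. Over the whole table, intronless genes had a median log2 ratio of 0.29 (1141 genes) and genes with introns one of -0.02 (7390 genes). Transcript length also bears on the values. With the trend on length removed, the medians were 0.85 for the heat-inducible genes and 0.18 for the others. Hsp27 then stood at 0.00 (just below 0, and the only one of the 14 to do so), and Hsp23 and Hsp26 at 0.21 and 0.27, while Hsp67Bc remained at 3.01. The part of intron number and length in the ratios was not tested further.

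A second deposited quantity, the mean normalized count over all 6 libraries, shows where the count and FPKM tables part. Divided by transcript length and by the mean FPKM and set relative to the median gene, it lay between 0.884 and 1.29 for 23 of the 28 genes, against 0.859 to 1.13 for the middle 50% of the 5891 genes at 10 FPKM or more. The 5 genes under 0.5, a limit that 8.997% of those genes missed, were Hsp22, Hsp67Bb, Hsp67Ba, DnaJ-60 and HSPC300.

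In 4 of the 5 the exons overlap those of another gene. Every exonic base of Hsp22 also lies in CG4456 (Hsp67Bb), which shares 90.1% of its own with Hsp22. The mean normalized count was 0 for Hsp22 and 2.43 for Hsp67Bb, so the FPKM of 966 and 498 for Hsp22 has no counterpart in the count table and its call rests on the FPKM alone. Hsp67Ba, overlapped over 75.9% of its exons by the antisense RNA CR43481, stood at 0.104 of the median gene, and DnaJ-60, which shares all of its exons with CG42568 and the opposite-strand gene speck, had a count of 0. HSPC300 overlaps no gene but is short, with a median transcript of 466.5 bases, and stood at 0.449. The Hsp70 copies stood between 1.28 and 1.29. With the 5 genes left out, 6 heat-inducible genes were called higher (7.66% of all genes were). The medians were then 0.76 for the heat-inducible genes and -0.05 for the others.

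**Figure D5:**
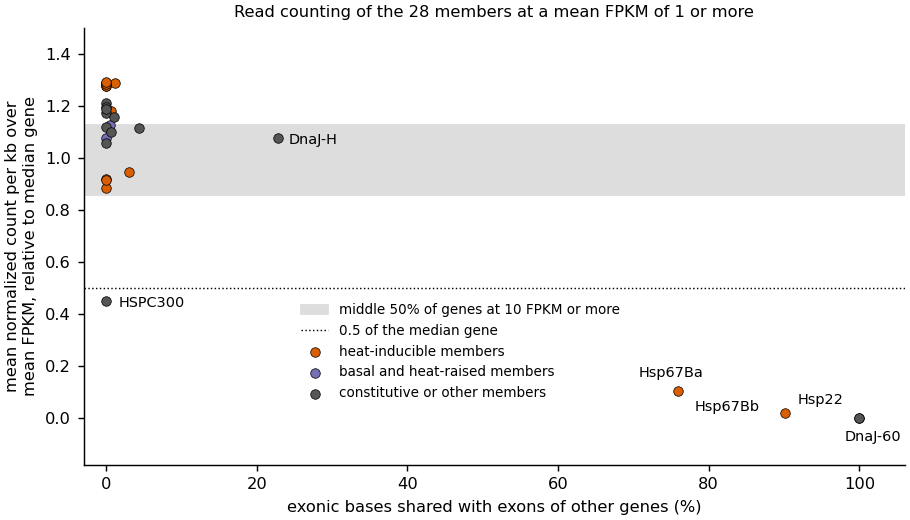
Mean normalized count per kb over the mean FPKM, relative to the median gene, against the share of exonic bases in % that overlap exons of other genes, for the 28 heat shock and chaperone genes at a mean FPKM of 1 or more; the grey band holds the middle 50% of genes at 10 FPKM or more and the dotted line marks 0.5. Hsp22 and DnaJ-60 coincide at 100% and 0, Hsp67Bb and Hsp67Ba lie near them, and HSPC300 is the low gene without overlap.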

How the data were processed

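The authors sorted cells from dissociated leg discs, extracted RNA from 3 GFP+ and 3 input samples and sequenced oligo-dT selected, single-end libraries. The labels and the study's methods do not say whether replicates came from separate animals beyond being different replicates. Per the labels, the tools were Trimmomatic 0.32, Bowtie2 2.1.0, Cufflinks 2.2.1 and DESeq2 1.2.8, with the dm6 genome; the annotation release and whether counting used strand are not given in the sources used here. The authors deposited 1 FPKM value for each group, between a lower and an upper bound, in a Cufflinks-style table, although the methods name DESeq2 for FPKM. The level of confidence is not given in the sources used here. The authors also deposited a DESeq2 table, from which only the mean normalized count over all libraries was used, a signal scaled by size factors; its fold changes, standard errors, test statistics and p-values are the authors' comparison and were not used. Library depths are unknown; the mean normalized counts sum to 31652166 over 17490 genes. No column of single samples was left unused (0).

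From these, ratios of the group FPKM were computed without a pseudocount, for genes with a mean FPKM of at least 1, in Python 3.11.15 with pandas 2.3.3, numpy 2.4.6, statsmodels 0.14.6 (lowess span 0.3) and matplotlib 3.10.9. Gene positions, transcript lengths and exon overlaps came from the Ensembl release 115 annotation, which matched 17138 of the 17411 genes, 98.9% of them inside the deposited locus. Current symbols came from the supplied name tables. The design had assumed values per library, so limma and leave-one-out fits were not run and calls follow from fold and bounds. For 7 of the 8820 genes, none of them among the 32, the FPKM lies outside its own bounds, and 8, again none of the 32, have a status other than OK, among them alphaTub84B, listed at 0 in GFP+ cells and at 3983 in the input. The call rule was tested on simulated data. All 32 genes could be named; Hsf and Hsromega were named by rule, with up to 4 genes per direction and list by size of change. Other genes named in the text were chosen after their values were seen. The members and all gene lists were chosen with earlier results of these data known. The alternatives were a pseudocount, other filters, folds and bounds, scaling and trends on length and level.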

Additional observations from a re-analysis of the deposited data

How the results depend on the processing

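Moves of each class median were set beside the median error of its single genes, 0.24 for the heat-inducible genes and 0.29 for the others. That error takes each bound as 2 standard deviations from its FPKM, an assumption, and it is not an error of the class median. The median log2 ratio of the heat-inducible genes (0.77) and of the others (0.08) moved by less with a pseudocount of 1, centring on all genes, the length trend or other filters. The same held with summed Hsp70 copies or uncertain genes left out, although without a filter the median of the others was -0.02. The medians became 0.34 and -0.35 on the TPM scale and 0.34 and -0.23 with the level trend removed, both chosen after seeing the data. The 7 heat-inducible genes called higher (7.66% of all genes were) became 3 without the Hsp70 copies. They became 2 at a fold of 2, where 4.91% of all genes were called higher, and 2 on the TPM scale, where 4.13% were. Of the 14 others 2 were called higher when the bounds were ignored, where 17.9% of all genes were. On the TPM scale 1 of them was called lower, where 24.9% of all genes were. The counts of the heat-inducible genes called lower stayed at 0 under each alternative run. Among the single genes, no called gene changed sign. Of 28 ratios, 20 moved beyond their own error with the level trend removed and 7 with the length trend removed. The TPM scale lowers every log2 ratio by the same amount. The 25 of 28 that moved beyond their error there are therefore those with an error smaller than that shift, and the count says nothing more about single genes.

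No paired analysis was possible because the tables hold 1 value per group. For the same reason no library was left out and no test across libraries was run. Bounds of 18.7% to 38.7% of the FPKM limit what is called: those of Hsp83 allow ratios between 0.580 and 2.23.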

Other observations

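Prefoldin, the hexamer that hands unfolded actin and tubulin to the CCT ring, had all 6 subunit genes at the higher FPKM in GFP+ cells, with a median log2 ratio of 0.59 (0.16 on the TPM scale, where all 6 stayed above 0). This list was chosen after its values were seen. Pfdn6 (CG7770) had 133 FPKM in GFP+ cells (bounds 105 to 160) and 79.3 in the input (bounds 60.6 to 98.0), and Pfdn5 (CG7048) had 159 and 97.1. These 2 were called higher, where 7.66% of all genes were. Among genes at a mean FPKM of 100 to 500, 14.5% were called higher and the median log2 ratio was 0.28. On the TPM scale no prefoldin gene was called, where 4.13% of all genes were called higher and 24.9% lower. The prefoldin median was 0.17 with the length trend removed and 0.47 with the level trend removed.

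The chaperones of the endoplasmic reticulum and of mitochondria, also listed after their values were seen, showed no call in either direction (7.66% of all genes were called higher and 13.2% lower). Of the 8 endoplasmic reticulum genes 4 lay above 0, from Cnx99A, the membrane lectin calnexin (105 FPKM in GFP+ cells, 144 in the input), to CG10973 (25.6 in GFP+ cells, 18.6 in the input), with Pdi, the disulphide isomerase, at 1883 and 1545. Of the 7 mitochondrial genes 5 lay above 0, and CG11267, the Hsp10 partner of Hsp60, was at 210 FPKM in GFP+ cells and 169 in the input. On the TPM scale 1 of the 8 and 0 of the 7 lay above 0, and 1 endoplasmic reticulum gene, Cnx99A, was called lower, where 24.9% of all genes were.

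CR43482, annotated beside Hsp27 in the 67B cluster, was listed at 2906 FPKM in GFP+ cells and 2635 in the input, a level near that of Hsp26, but its bounds reached 0 in both groups (upper bounds 6116 and 5617).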
